A study of Homo sapiens and Mus musculus with 25 samples.

Results

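The widest continuous stretches of trimethylated lysine 27 of histone H3 (H3K27me3) in K562 cells are described here, with the genes inside them and the H3K4 methylation peaks at their promoters. They are the H3K27me3 peaks of at least 500000 bases on chromosomes 1 to 22, and 227 of the 33543 peaks listed there passed that width. K562 is an established human leukaemia line with erythroid features, and the labels name no treatment of it. The H3K27me3 list came from 1 library made with the Cell Signaling Technology 9733 antibody, beside 17 libraries with antibodies raised against H3K4me1 (5), H3K4me2 (4) or H3K4me3 (8). All were internally calibrated ChIP-seq, in which barcoded nucleosome standards are added to the chromatin before precipitation. Every group is 1 cell line and the labels name no separate cultures, so the p-values below measure the spread between antibodies and not between biological samples. The domains were compared with the 33316 shorter H3K27me3 peaks and with the sequence outside all H3K27me3 peaks, on build GRCh38.

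H3K27me3 is written by Polycomb repressive complex 2, whose catalytic subunit is EZH2 or EZH1, and is known for covering developmental genes that a cell keeps off. H3K4me3 is known from active and poised promoters, H3K4me1 from enhancers and promoter flanks, and H3K4me2 from both. A promoter with H3K27me3 and H3K4me3 together is called bivalent in embryonic stem cells. Peak lists from a cell population cannot say whether both marks sit on the same nucleosome or in the same cell.

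The domains had a median width of 599.153 kb and covered 144.016 Mb, 7.63% of all bases under H3K27me3 peaks. The median shorter peak had 20267.5 bases. The members were chosen by this width, which is given with no test. The narrowest members were chr15:77376213-77876275 with 500063 bases, chr10:33013931-33514401 with 500471 and chr12:64848136-65349333 with 501198. Just below the rule stood chr2:161003201-161502074 with 498874 bases, chr16:27306677-27804708 with 498032 and chr2:170150728-170648649 with 497922. The limit cut through a continuous range, since 74 members had 500 to 550 kb and 85 peaks had 450 to 500 kb. Only 3 domains exceeded 1 Mb. Chromosome 1 held 39 domains, which took 10.5% of its assembled sequence, chromosome 7 held 22 and chromosome 6 held 19, while chromosomes 14 and 19 held 1 each.

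The H3K27me3 list was broad as a whole, covering 68.4% of the 2756 Mb of assembled sequence on chromosomes 1 to 22. A position in a peak of this list is therefore the common state, and the domains stand apart from shorter peaks by their length. The list gives positions with no value per peak, so the density of H3K27me3 inside the domains is not known. The broad list for H3K9me3, a mark of constitutive heterochromatin, covered 99.98% of the domain bases, 99.8% of the shorter peaks and 92.5% of the sequence outside, so it sorts few regions.

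Promoter sequences from the ends of the range are printed first because the numbers below turn on which domain promoters hold H3K4 peaks. All 6 are the 250 bases upstream of the RefSeq start (GRCh38.p14), on the gene's own strand, with each CpG in capitals. The first 3 had a peak in all 17 H3K4 lists and lead that group by name. They belong to ABHD1, which encodes an alpha/beta hydrolase fold protein (chr2:27123565-27123814, plus strand), ACBD3, which encodes a Golgi acyl-CoA binding protein (chr1:226186742-226186991, minus strand), and AGBL5, a carboxypeptidase that trims glutamates from tubulin (chr2:27051418-27051667, plus strand).
ABHD1: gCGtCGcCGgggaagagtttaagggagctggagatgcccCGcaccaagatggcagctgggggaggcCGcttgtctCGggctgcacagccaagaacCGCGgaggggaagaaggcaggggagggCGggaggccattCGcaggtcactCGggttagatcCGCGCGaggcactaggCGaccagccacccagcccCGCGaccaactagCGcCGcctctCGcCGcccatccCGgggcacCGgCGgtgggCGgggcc
ACBD3: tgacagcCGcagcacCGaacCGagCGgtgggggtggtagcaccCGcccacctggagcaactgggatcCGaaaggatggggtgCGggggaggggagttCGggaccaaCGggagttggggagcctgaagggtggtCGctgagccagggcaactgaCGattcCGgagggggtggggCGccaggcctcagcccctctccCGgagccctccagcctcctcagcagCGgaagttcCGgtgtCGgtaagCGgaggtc
AGBL5: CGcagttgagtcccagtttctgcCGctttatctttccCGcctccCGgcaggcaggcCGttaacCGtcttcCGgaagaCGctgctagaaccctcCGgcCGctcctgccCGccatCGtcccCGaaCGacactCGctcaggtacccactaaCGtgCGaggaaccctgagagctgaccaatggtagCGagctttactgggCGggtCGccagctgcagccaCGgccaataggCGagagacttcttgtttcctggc

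The other 3 had at most 1 list. MKX, a homeobox factor of tendon (chr10:27745820-27746069, minus strand), had a peak in 0 of 17 lists and was the lone domain promoter without one. PAX5, the factor of B-cell identity (chr9:37034269-37034518, minus strand), and NTRK3, the neurotrophin-3 receptor (chr15:88256740-88256989, minus strand), had 1 each. Among all coding promoters 6.53% had no peak in any list. ATP10A also had 1 list and is not shown. PAX5 and NTRK3 were chosen for display after their values were seen.
MKX: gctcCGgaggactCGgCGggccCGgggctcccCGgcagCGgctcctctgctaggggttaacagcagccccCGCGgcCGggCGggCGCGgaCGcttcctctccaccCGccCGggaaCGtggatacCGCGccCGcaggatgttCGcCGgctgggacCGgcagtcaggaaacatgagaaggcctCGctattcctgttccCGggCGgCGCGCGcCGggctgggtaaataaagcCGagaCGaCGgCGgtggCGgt
PAX5: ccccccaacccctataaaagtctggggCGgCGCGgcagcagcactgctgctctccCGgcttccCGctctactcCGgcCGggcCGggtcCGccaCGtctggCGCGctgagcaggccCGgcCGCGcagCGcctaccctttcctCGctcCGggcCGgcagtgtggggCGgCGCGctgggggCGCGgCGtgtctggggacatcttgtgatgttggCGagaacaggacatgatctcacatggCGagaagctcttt
NTRK3: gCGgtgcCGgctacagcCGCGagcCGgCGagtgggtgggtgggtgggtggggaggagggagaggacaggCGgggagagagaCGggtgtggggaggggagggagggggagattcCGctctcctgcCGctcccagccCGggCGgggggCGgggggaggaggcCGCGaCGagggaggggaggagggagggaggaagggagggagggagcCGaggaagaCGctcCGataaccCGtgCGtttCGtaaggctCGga

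The CpG count of these windows did not follow the number of lists. MKX held 34 CpG with no peak, PAX5 27 and NTRK3 23, against 25 in ABHD1, 18 in ACBD3 and 22 in AGBL5. The median over the 33725 RefSeq promoters of chromosomes 1 to 22 was 11. A RefSeq promoter at the same start was found for 775 of the domain genes.

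The domains were not poor in genes. They held the transcription start sites (TSS) of 1025 protein-coding genes, 5.36% of the 19111 on these chromosomes, in 5.22% of the assembled sequence. That is 7.12 coding starts per Mb, beside 6.91 in shorter peaks and 6.95 outside. Long non-coding RNA genes numbered 1078, or 7.49 per Mb, beside 6.75 and 6.39. The GC content was 42.4% in domains, 41.1% in shorter peaks and 40.4% outside. These are single values of 1 list and carry no test.

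Genes were spread unevenly over the domains. No coding start lay in 22 domains, 43 domains held 1 and 27 held 10 or more, with a median of 3. Every domain held the start of at least 1 coding or long non-coding RNA gene. The 22 domains without coding starts held 101 long non-coding RNA genes. The coding genes were long, with a median of 35.4 kb, beside 29.8 kb for genes that start in shorter peaks and 23.2 kb outside. The longest were GPC5 (1475 kb), a cell-surface heparan sulphate proteoglycan, KAZN (1225 kb), a cell junction protein, and CDH13 (1174 kb), the GPI-anchored T-cadherin.

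H3K4me1 peaks overlapped nearly every promoter inside the domains, and H3K4me3 peaks overlapped about as many as in the genome at large. A promoter was the window of 1 kb either side of the TSS, and it was called for a target when more than 50% of that target's lists held a peak there. H3K4me1 was called at 985 of 1025 domain promoters (96.1%), against 82.7% of all coding promoters. H3K4me2 was called at 865 (84.4%), against 75.1%. H3K4me3 was called at 551 (53.8%), against 54.0%, so the H3K4me3 share was near the background. All 17 lists held a peak at 404 domain promoters (39.4%), against 29.2% of all, 36.2% in shorter H3K27me3 peaks and 13.3% outside. In shorter H3K27me3 peaks H3K4me1 was called at 90.9%, H3K4me2 at 81.7% and H3K4me3 at 56.4% of promoters. The H3K4me1 lists covered 35.9% to 95.4% of all domain bases, so an overlap need not be particular to the promoter.

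In each H3K4me1 list, domain promoters held a peak more often than promoters outside H3K27me3 peaks. The share in domains was 92.2% for Abcam ab8895, 98.2% for Active Motif 39635, 95.7% for Cell Signaling Technologies 5326 BF, 96.2% for EpiGentek A-4031-050 and 89.6% for Thermo Fisher 710795. Outside H3K27me3 peaks the same lists gave 59.3%, 37.1%, 66.4%, 72.0% and 66.1%, so the ranges did not overlap. The mean was 94.4% ± 3.46 in domains and 60.2% ± 13.7 outside (SD, n = 5 lists), a difference of 34.2 points. The exact two-sided sign-flip test gave p = 0.0625, the smallest that 5 lists allow, and an adjusted p of 0.125.

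H3K4me2 lists held a peak at 92.3% (Abcam ab7766), 97.4% (Cell Signaling Technologies 9725), 66.8% (EMD Millipore 05-1338) and 86.7% (Thermo Fisher 710796) of domain promoters. Outside, they gave 59.1%, 71.1%, 65.5% and 60.1%. In 3 of these lists the difference was 26.3 to 33.2 points, and in EMD Millipore 05-1338 it was 1.32. The mean difference was 21.9 points, with an exact p of 0.125, the smallest for 4 lists.

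H3K4me3 lists ranged from 42.0% (EpiGentek A-4033-050) through a median of 54.4% to 93.7% (Abcam ab8580) in domains, and from 22.2% through 52.0% to 58.7% outside. The ranges overlap widely, but each of the 8 lists was higher in domains than outside. The mean difference was 13.1 ± 13.3 points (SD, n = 8 lists). The exact sign-flip test gave p = 0.00781, the smallest that 8 lists allow, and an adjusted p of 0.0352. Adjusted p-values are by the Benjamini-Hochberg method over 18 tests, with a threshold of 0.05. With 7 lists the smallest possible exact p is 0.0156. Leaving out Abcam ab8580 gave 9.34 points and kept the call (exact test, adjusted p = 0.0469), while leaving out any of the other 7 lists ended it (exact test, adjusted p = 0.0682 or 0.0703, 12.2 to 14.9 points). Only peaks at or above their list's median value gave 3.54 points (exact test, adjusted p = 0.402). That setting also left out Abcam ab8580, Diagenode C15410003 and EpiGentek A-4033-050, which have no value per peak. Their unfiltered differences were 39.5, 16.1 and 19.7 points, so the peak filter and the set of lists changed together. Over all 17 lists the difference was 21.4 points, positive in each list (exact p = 1.53e-05, the smallest possible, adjusted p = 0.000137).

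The size of the difference moved with amplification. Thermo Fisher PA5-40086, Abclonal A2357 and Abcam ab12209 for H3K4me3 and EMD Millipore 05-1338 for H3K4me2 were amplified for 12 cycles, and differed by 0.238 to 2.45 points. The H3K4me3 libraries of 8 cycles differed by 8.11 to 39.5 points, and the H3K4me1 libraries, all of 8 cycles, by 23.5 to 61.1. Of the 17 H3K4 lists, 15 were assigned to the input labelled AR16. The other 2, Diagenode C15410003 and EpiGentek A-4033-050 for H3K4me3, both of 8 cycles, were assigned to the input AR17. They held a peak at 31.1% and 22.2% of promoters outside, the lowest H3K4me3 shares there, and differed by 16.1 and 19.7 points. The parts of cycle number and input in the result were not tested. The peaks that promoters outside did hold had higher values by the authors' scale in all 9 H3K4me1 and H3K4me2 lists. In Abcam ab8895, for example, the median was 18.4 at domain promoters and 25.3 outside.

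**Figure D1:**
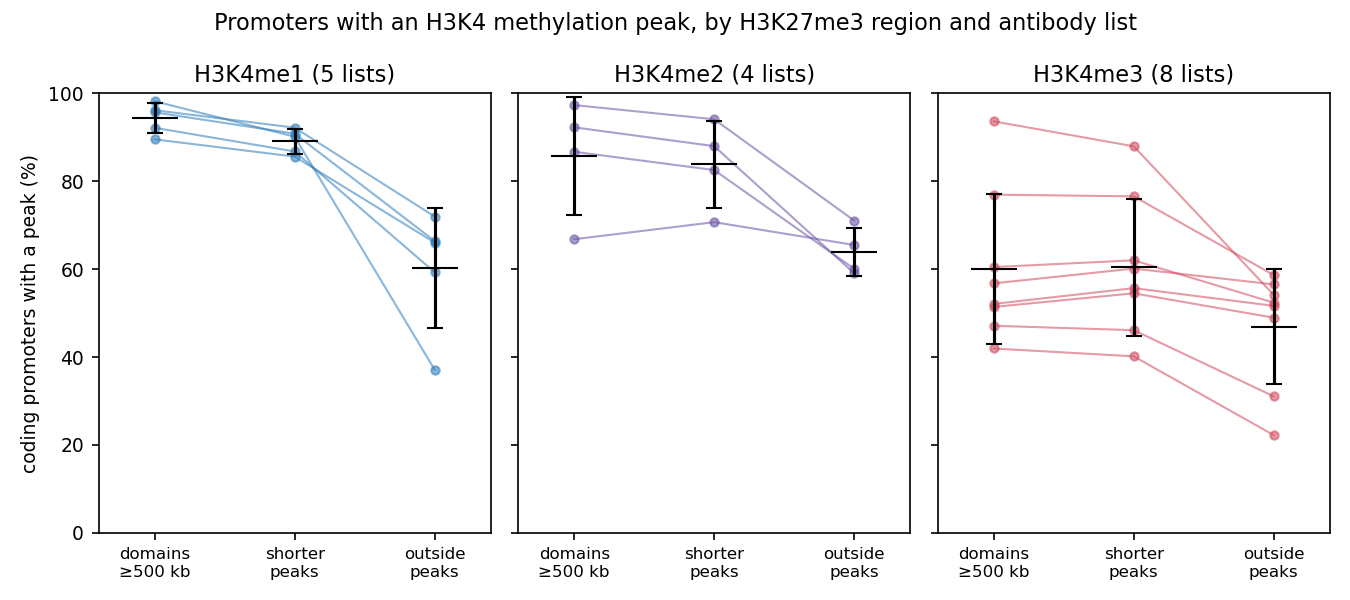
Percent of coding promoters with a peak in each antibody list (points joined by lines), in domains of at least 500 kb, shorter H3K27me3 peaks and outside H3K27me3 peaks. Bars give the mean and SD over lists; the H3K4me1 means are 94.4%, 89.1% and 60.2%, and the H3K4me3 means 60.1%, 60.4% and 47.0%.

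Against shorter H3K27me3 peaks the domains differed little. H3K4me1 was 5.25 ± 1.70 points higher in domains, in 5 of 5 lists (exact p = 0.0625, adjusted p = 0.125). H3K4me2 was 1.95 points higher, in 3 of 4 lists (exact test, adjusted p = 0.482). H3K4me3 differed by -0.34 ± 3.21 points, with 4 of 8 lists higher (exact test, adjusted p = 0.811). Over 17 lists the difference was 1.84 points, with 12 lists higher, and did not pass (exact p = 0.0618, adjusted p = 0.125). It passed with a domain limit of 250 kb (2.00 points, exact test, adjusted p = 0.00769) or 750 kb (4.65 points, adjusted p = 0.00394), so the result depends on where the width limit lies. Without H3K4 peaks over 50 kb it turned to -0.60 points (exact test, adjusted p = 0.938).

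The chromosomes with few H3K4 peaks in these lists, 13 and 14 and the short arm of 9, held 6 of the domain promoters and 844 of the 6045 outside (14.0%). Of the 1035 promoters outside that had no peak in any list, 155 lay there, and the median promoter outside had 9 lists there and 11 on other chromosomes. In domains these medians were 11 and 15. Within the 14 chromosomes that hold at least 20 domain promoters, H3K4me1 and H3K4me2 shares were higher in domains than outside on all 14, and H3K4me3 on 11.

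Covered length was also higher in domains than outside. The means in shorter H3K27me3 peaks lay between, at 51.3% for H3K4me1, 35.8% for H3K4me2 and 6.20% for H3K4me3. H3K4me1 peaks covered 62.0% ± 22.0 of domain bases and 12.6% ± 3.18 of bases outside (SD, n = 5 lists), H3K4me2 peaks 43.4% ± 34.1 and 10.0% ± 7.46 (n = 4), and H3K4me3 peaks 7.56% ± 15.8 and 2.04% ± 2.78 (n = 8). The H3K4me3 difference of 5.52 points passed (exact sign-flip p = 0.00781, adjusted p = 0.0352) but was 0.93 points without Abcam ab8580, which covered 46.3% of domain bases and 8.62% outside. Cover in domains as a percent of cover outside was 559% ± 396 for H3K4me1 and 211% ± 143 for H3K4me3 lists. That difference of 349 points passed (exact permutation p = 0.0124, adjusted p = 0.0448). Without Active Motif 39635, whose median peak in domains was 46786 bases wide, it was 175 points (exact test, adjusted p = 0.188), and without H3K4 peaks over 50 kb it was 141 points (adjusted p = 0.503).

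The authors' corrected lists, in which off-target capture was computed out from 4 of these libraries, also gave higher shares in domains than outside. The corrected H3K4me3 list held a peak at 333 domain promoters (32.5%), beside 24.2% in shorter peaks and 6.07% outside. Here it differed from the uncorrected H3K4me3 lists, whose mean was 60.1% in domains, 60.4% in shorter peaks and 47.0% outside. Of the promoters with all 8 H3K4me3 lists, ABHD1, ACBD3 and APC, for example, held no corrected H3K4me3 peak, while AGBL5 and AGO3 did. The corrected H3K4me1 list marked 89.4% of domain promoters and 51.2% of those outside, and the corrected H3K4me2 list 72.6% and 33.7%. Each is 1 list made from libraries already used above, so there is no replicate check and no separate one.

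The combinations sorted the domain promoters into a few classes. All 3 targets were called at 545 promoters (53.2%), H3K4me1 with H3K4me2 at 312 (30.4%) and H3K4me1 alone at 128 (12.5%). These shares were 55.7%, 24.9% and 10.2% in shorter peaks and 43.5%, 12.5% and 6.95% outside. H3K4me3 was never called without H3K4me2, and H3K4me2 without H3K4me1 was called at 8 promoters. None of the 3 targets was called at 32 promoters (3.12%), beside 7.74% in shorter peaks and 30.2% outside. Promoters of the 312 class were not free of peaks in H3K4me3 lists, since Abcam ab8580 listed 299 of them and EMD Millipore 07-473 listed 197. Abcam ab12209 listed 0 of them, and Thermo Fisher PA5-40086 and EpiGentek A-4033-050 listed 1 each.

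**Figure D2:**
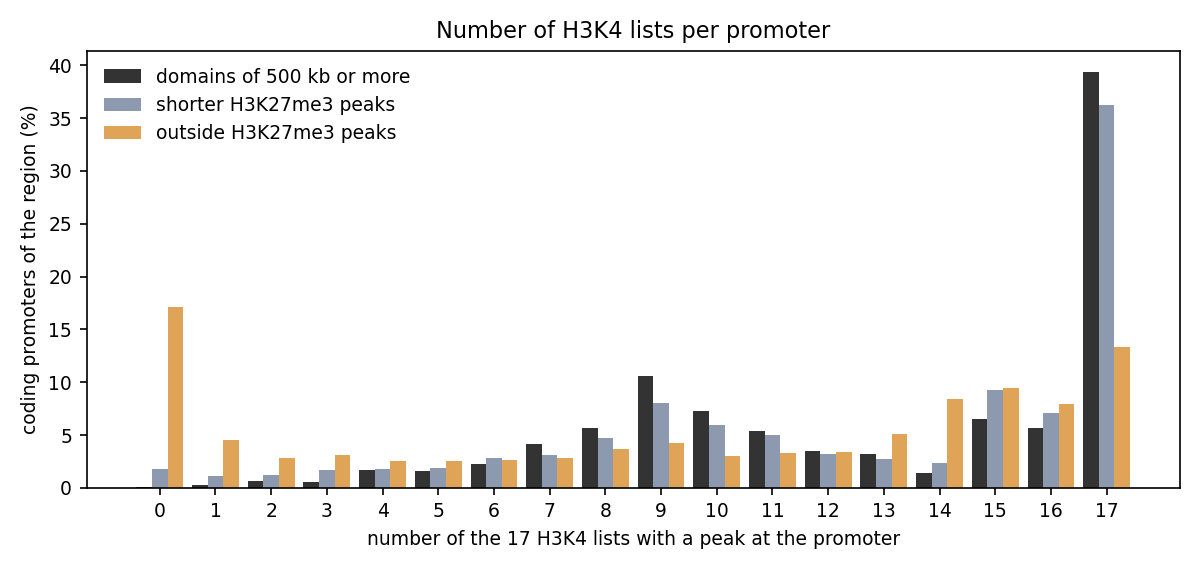
Percent of coding promoters (y axis) by the number of the 17 H3K4 lists with a peak there (x axis), in domains, shorter H3K27me3 peaks and outside. Domain promoters show modes at 9 lists (10.6%) and 17 (39.4%), with a smaller rise at 15 (6.54%). Shorter peaks show a similar shape, with 8.00% at 9 lists, 9.31% at 15 and 36.2% at 17. Of promoters outside, 17.1% have 0 lists, beside 1.75% in shorter peaks.

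In the domains, as in the other regions, H3K4me3 calls followed the CpG content of the promoter. A promoter was counted as CpG-rich when its observed CpG count was at least 0.6 of that expected from its base composition. In domains H3K4me3 was called at 495 of 697 CpG-rich promoters (71.0%) and at 56 of 328 others (17.1%). The shares were 76.9% and 17.4% in shorter peaks and 63.3% and 17.5% outside, so the split is not particular to the domains. H3K4me1 was called at 95.6% of CpG-rich and 97.3% of other promoters in domains, 93.4% and 86.2% in shorter peaks and 72.6% and 44.5% outside. Among domain genes with a matched RefSeq promoter, the median was 21 CpG in 250 bases where H3K4me3 was called and 7 where it was not. Of the 32 promoters with no target called, 23 (71.9%) were CpG-rich, near the 68.0% of all domain promoters. These are counts over genes of 1 genome, with no test.

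Those 32 promoters were of mixed kinds, and 11 had at most 2 lists. ATP10A, a phospholipid flippase, had 1 list, and ABCC8, the sulphonylurea receptor, JAZF1, a zinc finger cofactor, and TNS3, a tensin of focal adhesions, had 2 each. LHX2, a factor of forebrain and eye, had 2 of 17 lists, PRDM14, a germ-cell regulator, had 2, and IRX6, an Iroquois factor, had 2. FOXB1, a forkhead factor of the embryonic brain, had 5. Genes of neurons were present too, with KCNC1, a fast potassium channel, at 2 lists, CACNB2, a calcium channel subunit, at 4 and NTNG1, an axon guidance protein, at 4. Others were short genes with few CpG, such as KRTAP1-1, KRTAP1-3 and KRTAP1-5 of hair keratin matrix, each with 4 lists, and UMOD, the uromodulin of kidney. The class was named after its values were seen.

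Of all coding genes 5.36% started in the domains, and the members of each gene list are counted against that share, with no test. Most lists are too small to read a difference from it. Calls are given in the order H3K4me1, H3K4me2 and H3K4me3. The HOX genes, which set position along the body axis, had 9 of 39 members in the domains, all of the HOXD cluster. H3K4me1 was called at 9 of these 9 promoters, H3K4me2 at 6 and H3K4me3 at 0, while the 39 genes had 37, 23 and 8. Other developmental transcription factors had 9 of 95 inside, called at 8, 7 and 4, beside 52, 36 and 19 of the 95. NR2F2, a nuclear receptor of vessels and mesenchyme, TBX18, a T-box factor, and WT1, a zinc finger factor of kidney and gonad, each had 16 of 17 lists. MSX1, a homeobox factor of limb and tooth, had 15. TBX3, a T-box factor of limb and breast, had 12, NEUROG1, a proneural factor, had 9 and LMX1A had 7.

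The lists of genes of other tissues had few members inside, and like domain promoters in general these were called for H3K4me1 more often than for H3K4me3. The domains held 8 of 102 neurotransmitter receptor genes, with H3K4me1 called at 8, H3K4me2 at 5 and H3K4me3 at 2, beside 68, 44 and 9 of the 102. HTR1D, a serotonin receptor, had all 17 lists and GRIK1, a kainate receptor subunit, 15, while HTR6 had 4 and GRIK4 had 3. Of 136 channel genes 11 lay inside, called at 9, 8 and 2, beside 94, 74 and 27 of the list, led by KCNC4 and KCNK15 with 15 lists each. Of 79 genes of neuronal adhesion 5 lay inside, called at 4, 3 and 0, beside 31, 27 and 8. Of 86 cadherins 3 did, called at 3, 2 and 0, beside 50, 45 and 14. CDH23, a cadherin of inner-ear hair cells, had 12 lists, and CDH6 and CDH13 had 8 each. The olfactory and taste receptors had 23 of 441 inside, called at 23, 18 and 0, beside 256, 169 and 4 of the list. The keratins and other barrier proteins had 20 of 226, called at 17, 13 and 1, beside 161, 69 and 4.

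The remaining lists had between 0 and 22 members inside. None of 28 erythroid genes, which K562 cells are known for, started in a domain, while 16 did in shorter H3K27me3 peaks and 12 outside. None of the 77 cytochrome P450 and UDP-glucuronosyltransferase genes and none of the 44 ADAM and ADAMTS genes did either. Of 24 housekeeping genes, EMC7, of the membrane insertion complex, and PSMB2, a proteasome subunit, started in domains with all 17 lists. Of 24 cell cycle genes, CDC45, of the replicative helicase, and TOP2A, the DNA topoisomerase of mitosis, did so with all 17. The calls over those whole lists were 23, 24 and 21 of the housekeeping and 24, 24 and 23 of the cell cycle genes. The ZNF-series C2H2 zinc finger genes had 22 of 542 inside, and 15 of these had all 17 lists. H3K4me3 was called at 17 of the 22, and at 418 of the 542. EPHA1, an ephrin receptor with 11 lists, was the 1 domain member of 71 semaphorin, ephrin and WNT genes.

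The 5 widest domains differed in content. The widest, chr6:137199587-138822881 (1623 kb), held 11 coding genes, and H3K4me3 was called at 5 of them. IFNGR1, a chain of the interferon gamma receptor, and TNFAIP3, the A20 regulator of NF-kB, had all 8 H3K4me3 lists there, while OLIG3, a factor of the spinal cord, had 2. The second, chr5:30860779-32002565 (1142 kb), held CDH6 with 8 of 17 lists and DROSHA, the nuclease of microRNA processing, with 17. The third, chr16:82368068-83495969 (1128 kb), held CDH13 alone. The fourth, chr3:8928072-9915326 (987 kb), held 18 genes, with all 17 lists at 11 of them, among them RAD18, SETD5 and BRPF1, which act in DNA repair and chromatin. The fifth, chr12:115291052-116276984 (986 kb), held no coding start and 11 long non-coding RNA genes.

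The HOXD, keratin and histone clusters show the patterns within a domain. In the HOXD domain, chr2:176080433-176800282, EVX2 and 9 HOXD genes had 6 to 13 lists, while their neighbour MTX2, a mitochondrial import gene, had 17. Abcam ab8580 listed 9 of the 9 HOXD promoters and EMD Millipore 07-473 listed 8, but 4 of the other 6 H3K4me3 lists held 0, and Abclonal A2357 and EMD Millipore 05-745R held 1 and 2. In the keratin domain, chr17:40336579-41050812, H3K4me3 was called at 4 of 27 promoters, those of TOP2A, IGFBP4, SMARCE1 and KRT10. KRT10, a keratin of upper epidermis, had 16 lists, whereas the other keratins there had 6 to 12 and the keratin-associated genes 4 to 8.

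The domain with the most coding genes, chr6:25586597-26368275, held 44, of which 34 encode histones. H3K4me1 and H3K4me2 were called at all 44, and H3K4me3 at 24 of the 34 histone genes, 20 of which had all 17 lists. H3C4, H2AC7 and H2BC7 start within a few kb of each other, and H2AC7 shares its start with another annotated gene, so such promoters are not independent. Over all domains, 51 coding starts lay under 1 kb after another.

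**Figure D3:**
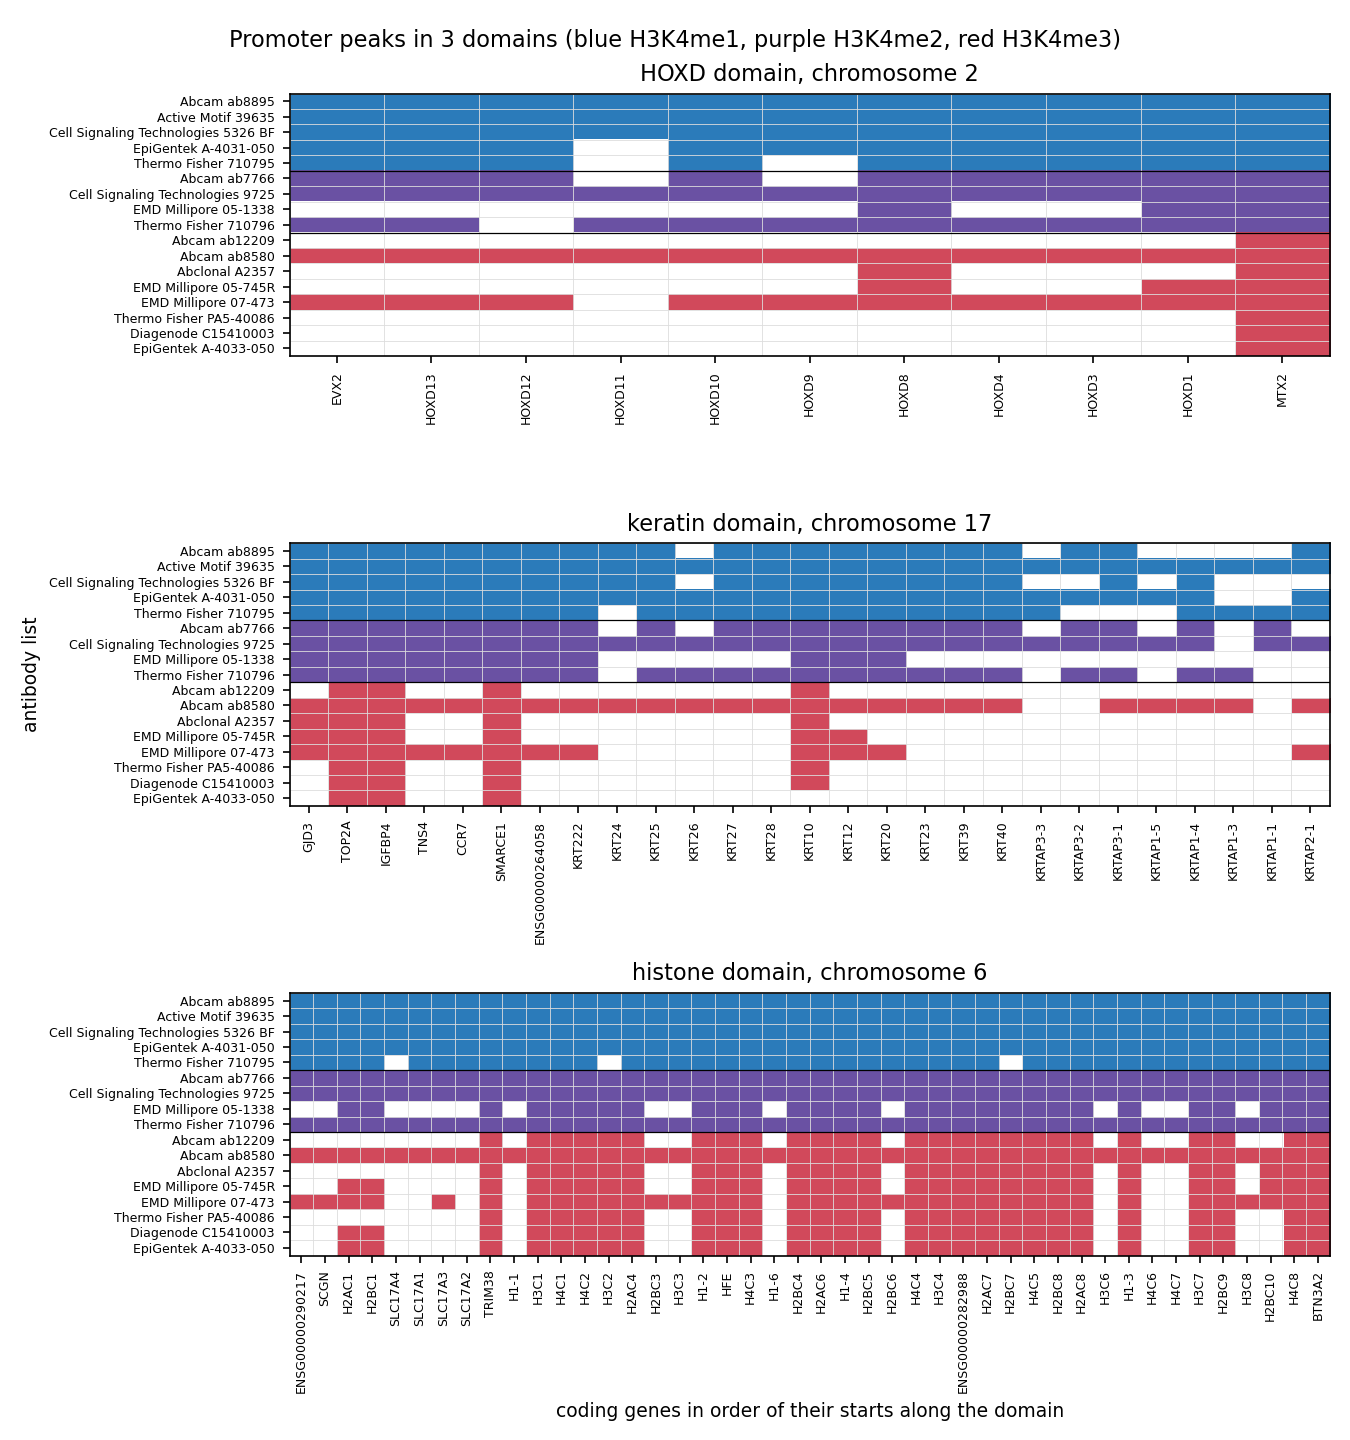
Promoters with a peak (filled) in each of the 17 lists (rows, blue H3K4me1, purple H3K4me2, red H3K4me3) for the coding genes of 3 domains in the order of their starts. In the HOXD domain the red rows are filled mainly for 2 antibodies, while 28 of 44 genes of the histone domain are called for H3K4me3.

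A further pair of domains tie with 23 coding genes each. In chr17:35399126-36159796, with the CC chemokine genes, H3K4me3 was called at 6 of 23 promoters. CCL5 had 13 lists and CCL4 had 5, while AP2B1, an adaptor protein of endocytosis, had 17. In chr20:45064012-45645373, with genes for WFDC protease inhibitors and semenogelins, H3K4me3 was called at 5 of 23, and SYS1, PIGT and SDC4 were among these. In the olfactory receptor domain, chr11:4407578-4933990, H3K4me1 was called at 19 of 19 promoters and H3K4me3 at 1, that of TRIM68, a ubiquitin ligase.

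Of the 205 domains with coding genes, 171 held at least 1 promoter called for H3K4me3 and 137 held at least 1 with all 17 lists. In 34 no promoter was called for H3K4me3, as in chr5:135399291-135982514 with NEUROG1, CXCL14 and IL9, where 7 promoters had 6 to 11 lists. In 9 no promoter was called for H3K4me1, among them the domains of NTRK3, ATP10A, GALNT17 and CACNB2, which hold 1 coding gene each.

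**Figure D4:**
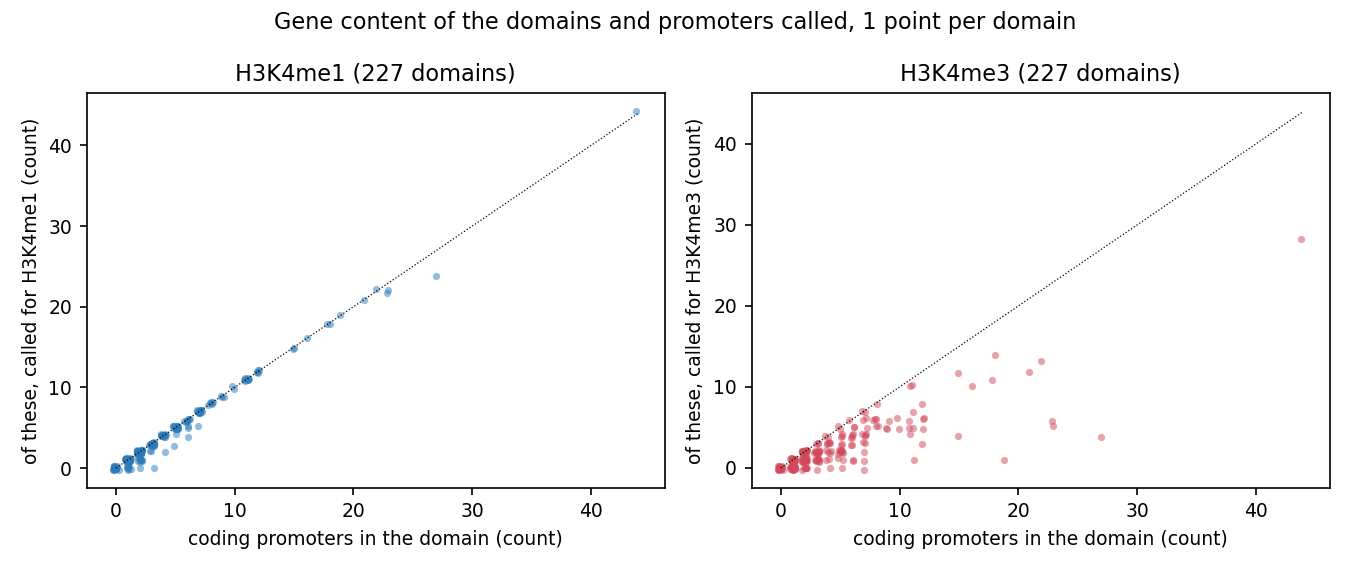
Number of coding promoters in each of 227 domains (x axis) and how many of them were called for H3K4me1 (left) or H3K4me3 (right); points are shifted by up to 0.25 for visibility and the dotted line marks all called. H3K4me1 lies near the line, while the keratin domain has 4 of 27 promoters called for H3K4me3 and the histone domain 28 of 44.

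H3K4me1 cover varied widely between domains. It ran from 2.86% in the chromosome 13 domain that holds FRY to 95.7% in chr1:25800530-26399682, with a median of 61.7%. The latter holds 22 coding genes, among them STMN1, a microtubule regulator, and H3K4me3 was called at 13. Domains without a coding start had a median of 51.1% and those with one 63.0%. Across the 227 domains, H3K4me1 cover and the number of coding genes had a Spearman rho of 0.55 and a Pearson r of 0.41, as a description, since domains share the same libraries. H3K4me1 and H3K4me3 cover, as means over lists, had a rho of 0.95. Abcam ab8580 weighed most in the H3K4me3 mean, with 46.3% of domain bases beside a median of 1.19% over the 8 lists. The correlation was not computed without that antibody.

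In 4 of the 5 H3K4me1 lists most peaks inside lay away from gene starts. In these lists 91.7% to 93.4% of the peaks in domains were over 1 kb from any annotated gene start. The range was 90.5% to 92.7% in shorter H3K27me3 peaks, close to the domains, and 77.4% to 86.2% outside. Active Motif 39635, with its wide peaks, went the other way, at 44.4% in domains, 56.7% in shorter peaks and 60.6% outside. Abcam ab8895 had 234 peaks per Mb in domains, 169 in shorter peaks and 23.0 outside. The H3K4me3 lists differed widely among themselves. The share of their peaks in domains over 1 kb from a start was 22.5% for Abcam ab12209 and 24.9% for Thermo Fisher PA5-40086. It was 44.4% to 65.8% in 4 lists, 91.1% for EMD Millipore 07-473 and 94.5% for Abcam ab8580.

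Long non-coding RNA promoters had fewer H3K4me3 calls than coding ones in the domains, as they did over chromosomes 1 to 22 (19.0% against 54.0%). H3K4me1 was called at 990 of 1078 (91.8%), against 69.6% of all such promoters, H3K4me2 at 67.3%, against 53.6%, and H3K4me3 at 17.9%, against 19.0%. The shares in shorter H3K27me3 peaks were 84.4%, 64.6% and 20.8%, and outside 33.8%, 27.5% and 15.4%.

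The edges of the domains were mostly narrow gaps. The distance to the next H3K27me3 peak had a median of 441 bases over 454 edges, 322 gaps were under 1 kb and 39 were over 10 kb. Beyond the edge, H3K27me3 peaks covered 81.1% of the first 10 kb and 91.0% of the next. H3K4me1 covered 59.0% ± 18.7 of the first 10 kb inside and 52.3% ± 16.5 of the first 10 kb outside (SD, n = 5 lists), and was higher inside in all 5 lists, from 3.88 points for Thermo Fisher 710795 to 10.1 points for Active Motif 39635. This paired difference was not tested. Of the 446 gaps beside domains, 48 (10.8%) held a called H3K4me3 peak and 41 (9.19%) a coding start, beside 6.34% and 5.54% of the 33075 gaps between shorter peaks. By distance from the domain edge, H3K4me3 was called at 17 of 25 promoters under 5 kb (68%), 51.4% at 5 to 25 kb, 54.9% at 25 to 100 kb, 53.2% at 100 to 250 kb and 52.7% beyond. H3K4me2 was called at 24 of the 25 under 5 kb and at 76.4% of those at 5 to 25 kb. These are counts with no test.

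**Figure D5:**
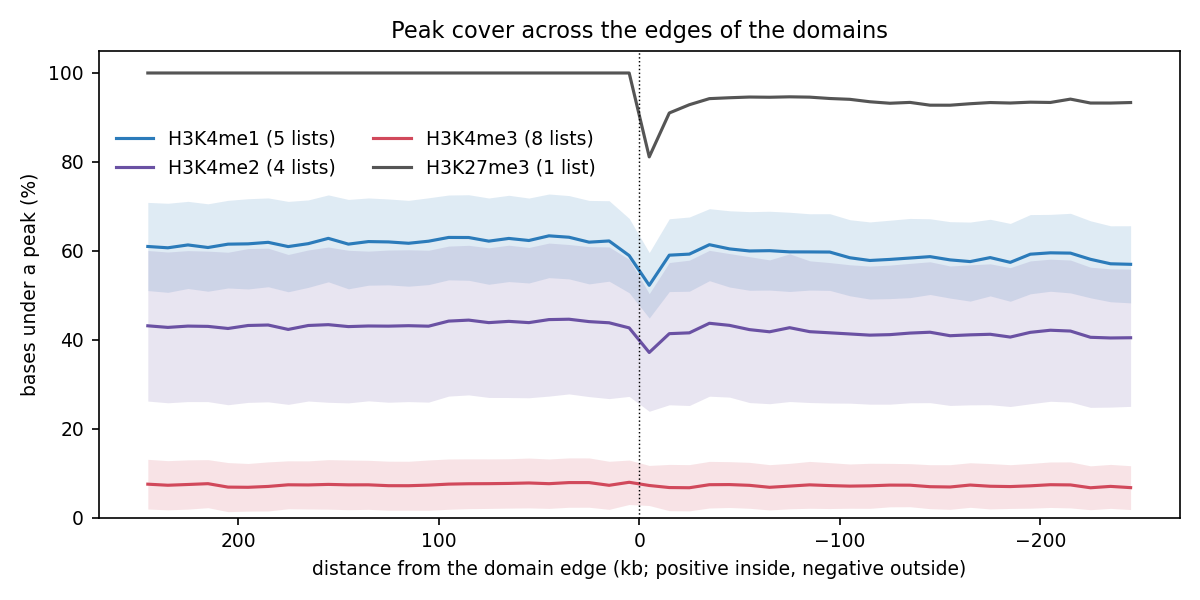
Percent of bases under a peak (y axis) by distance from the edges of the domains in kb, inside (positive) and outside (negative), as means over lists with the standard error shaded; H3K27me3 is 1 list. In the first 10 kb, H3K27me3 cover is 100% inside, by the rule, and 81.1% outside, and H3K4me1 cover is 59.0% inside and 52.3% outside.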

How the data were processed

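The authors deposited 1 list of peak positions per library, with no read counts, so depth is unknown and no counting interval was computed; a promoter with no listed peak is not shown to be unmodified. In 14 of the 17 H3K4 lists and in the 3 corrected lists the authors also deposited a signal value per peak, whose scale no header names; it was used only within a list. The corrected lists were computed by the authors, per the labels. Peaks were not pooled over antibodies. MACS2, Bowtie2, bedtools and SAMtools are the tools named in the submitters' processing notes, with the build GRCh38; their versions and calling settings were not given in the sources used here.

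Coding and long non-coding RNA genes came from GENCODE release 44, at the TSS of the canonical transcript. A promoter held a peak if 1 base of its window overlapped. Calls needed 3 of 5 H3K4me1, 3 of 4 H3K4me2 or 5 of 8 H3K4me3 lists. Shares inside and outside were compared over lists by exact two-sided sign-flip tests, and targets by exact two-sided permutation tests, with Benjamini-Hochberg adjustment over 18 tests (numpy 2.4.6, pandas 2.3.3). The tests were checked on simulated data. The windows, limits and peak filters were varied, and each list was left out in turn.

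The members, the 15 gene lists and the tests were chosen with earlier results of these data known. Named genes are the 5 widest domains and 3 with most genes, H3K4me3-called genes ranked by number of lists, the 2 highest and 2 lowest of each list with at least 3 members inside, the 5 longest genes, genes under the widest corrected H3K4me3 peaks, and neighbours described with them. Other samples of the series (inputs and mouse cells) were not used here.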

Additional observations from a re-analysis of the deposited data

Results flagged for a closer look

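Of 18 sets of list values checked for a list apart from the others, 4 held one; chance gives about 1 in 20. Active Motif 39635 stood apart from the other H3K4me1 lists in its promoter difference, domains minus outside, of 61.1 points. Abcam ab8580 stood apart from the other H3K4me3 lists in its cover of domain bases (46.3%), of bases outside (8.62%) and in the difference of 37.7 points. The groups also differed by target: cover in domains as a percent of cover outside was 349 points higher for H3K4me1 than for H3K4me3 lists (exact permutation test, adjusted p = 0.0448), and it did not pass without Active Motif 39635. The part of antibody specificity in these values was not tested.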

How the results depend on the processing

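Over all lists that a setting used, domain promoters and domain bases exceeded those outside H3K27me3 peaks under every alternative run (14.6 to 27.6 points for promoters and 17.7 to 32.5 for bases). The H3K4me1 and H3K4me2 differences from outside kept their sign too. The limits lie in the H3K4me3 call and in the comparison with shorter peaks, which turned with the processing. The cause was not tested. The H3K4me3 call was lost without any 1 of 7 lists, while the difference stayed at 9.34 to 14.9 points. Its exact p was already the smallest for 8 lists, and dropping a list raises that smallest value. Without chromosomes 13, 14 and 9p no call changed. No paired analysis was possible because the labels give no replicate numbers that pair antibodies across targets.

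For H3K4me3 promoters against outside, the difference was 11.9 points with a window of 2500 bases, 10.4 with 50% of the window covered, 11.6 with the TSS at the gene's 5′ end, 3.54 with peaks at or above the list median, 11.5 for AR16 libraries and 20.3 for 8-cycle libraries, none past the threshold. Its cover difference was 0.67, 7.21 and 8.76 points under the last 3. With 5 lists of 8 cycles no exact p can fall below 0.0625. The list-median setting left out Abcam ab8580, Diagenode C15410003 and EpiGentek A-4033-050, which have no value per peak. With fewer lists its smallest possible exact p also rises.

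Against shorter peaks, the H3K4me3 difference was 0.91 points at 250 kb, 3.02 at 750 kb, 8.37 with H3K27me3 peaks under 5 kb apart joined, 1.46 for 8-cycle libraries and 0.28 with starts under 1 kb apart counted once, an alternative chosen after seeing the data. Over all lists it was 2.00, 4.65, 9.69 and 3.48 points under the first 4, each past the threshold. It turned to -0.55 at or above the list median (the 14 lists with a value per peak), -0.60 without H3K4 peaks over 50 kb and -0.41 for CpG-rich promoters. Without peaks over 50 kb it was -0.18 for H3K4me1 and -1.64 for H3K4me2, and for CpG-rich promoters -0.29 for H3K4me2.

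Between targets, H3K4me2 minus H3K4me3 in the promoter ratio turned to -0.87 points at 250 kb, -3.68 at 750 kb, -2.31 with joined peaks, -1.53 with 50% of the window, -7.07 without peaks over 50 kb, -10.1 for CpG-rich promoters and -6.17 for 8-cycle libraries. Without peaks over 50 kb, H3K4me1 minus H3K4me3 was -5.48 for promoters and 141 for cover, and H3K4me1 minus H3K4me2 was -5.01 for cover. The cover ratio of H3K4me1 minus H3K4me3 lost its call at 750 kb (326), for AR16 (345) and for 8-cycle libraries (291).

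Leaving out 1 list at a time gave 9.34 to 14.9 points for H3K4me3 promoters against outside, 0.93 to 6.30 for its cover, and -1.20 to 0.12 against shorter peaks. Ratios between targets ran from -5.52 to 12.6 (H3K4me2 minus H3K4me3, promoters), and for cover from -5.35 to 233 (H3K4me1 minus H3K4me2), 175 to 413 (H3K4me1 minus H3K4me3) and 142 to 259 (H3K4me2 minus H3K4me3).

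Counts of called promoters moved with the coding promoters enclosed, which were 3898 at 250 kb, 269 at 750 kb and 10879 with joined peaks. H3K4me1, H3K4me2 and H3K4me3 were called at 3657, 3262 and 2168 of them at 250 kb (93.8%, 83.7% and 55.6%). At 750 kb the calls were 265, 240 and 156 (98.5%, 89.2% and 58.0%). With joined peaks they were 10167, 9117 and 6310 (93.5%, 83.8% and 58.0%). Over all coding promoters the shares were 82.7%, 75.1% and 54.0%.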

Other observations

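The widest corrected H3K4me3 peaks over domain promoters were as follows, as a description. GART, an enzyme of purine synthesis, and SON, a splicing protein, start under 1 kb apart beneath 1 corrected peak of 7816 bases in chr21:33403465-33925819, where H3K4me3 was called at all 8 coding promoters. PRPF4B, a splicing kinase, PCF11, a factor of transcript cleavage, VAPA, of endoplasmic reticulum contacts, and STXBP5, of vesicle release, followed with peaks of 5061 to 6636 bases, each with 17 lists. A corrected peak of 6918 bases covered the starts of the histone genes H2AC7, H2BC7 and H3C4. STXBP5 starts 0.31 kb inside its domain. Of the HOXD genes, HOXD9, HOXD10 and HOXD11 overlapped a corrected H3K4me3 peak although they had at most 2 of 8 H3K4me3 lists, and HOXD8, with 4 lists, did not.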
